A study of Mus musculus with 31 samples.

Results

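The comparison was of wild type mouse skin at 4 weeks of age with wild type skin at 2 weeks, measured on 3 expression arrays at each age. These 6 arrays were chosen by their sample titles, out of 31 in the series. Every mouse in both groups was a female C57BL/6J, each array held the skin of a different mouse, and neither a treatment nor a mutant allele was given for them. The labels do not name the body site or the skin layers that were taken. The other 25 arrays hold 10 wild type samples of 6, 8 and 10 weeks and 15 samples of female cpdm mice. Those mice are labelled C57BL/KaLawRij-Sharpincpdm/Sharpincpdm RijSunJ, lack SHARPIN and develop a chronic dermatitis, so that they differ from the wild type in substrain as well as in the mutation.

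Young mouse skin is still being built between these ages. While the juvenile coat grows, the follicles make hair shaft and inner root sheath from dividing matrix cells, with pigment from follicular melanocytes. The follicles then regress and rest until a new period of growth. Over the same weeks dermal fibroblasts lay down collagen, the white fat layer below the dermis fills, the thin striated muscle sheet under the skin matures and resident immune cells settle.

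Signals are the deposited log2 values after RMA, a method that summarises the probes of each gene and puts the arrays on a common scale. Over the 19938 genes with a probe set of their own, arrays of the same age correlated at 0.995 to 0.996 at 2 weeks and at 0.989 to 0.994 at 4 weeks, across genes. The epidermal keratin Krt5 stood at 12.32 at 2 weeks and 12.25 at 4 weeks on the log2 scale and the dermal collagen Col1a1 at 12.39 at 2 weeks and 13.36 at 4 weeks, which bore out the labelled tissue. The milk protein genes Csn2 and Wap stood at 4.10 at 2 weeks and 4.11 at 4 weeks and 5.31 at 2 weeks and 5.22 at 4 weeks, and the brown fat gene Ucp1 at 4.46 at 2 weeks and 4.33 at 4 weeks. Array 1 of the 4 week group stood apart from arrays 2 and 3 in several groups of genes, as given with them below.

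Nearly as many genes rose as fell, and the largest single differences were falls of hair genes. A gene was called where its difference between the ages had an adjusted p below 0.05 in limma (a linear model fitted to all 31 arrays, with Benjamini-Hochberg adjustment over all genes). By this rule 9138 genes (45.8% of 19938) were called, of which 4244 (21.3%) were higher and 4894 (24.5%) lower at 4 weeks. The 3 arrays of one age lay wholly above or below those of the other age in 10613 genes (53.2%). Differences of at least 2-fold were called for 1338 higher and 663 lower genes. The median difference of all genes was -0.06, and it was -0.14 after each array was centred on its own median. With that centring 3615 genes were called higher and 6795 lower, so the split among small differences depends on the scale chosen.

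**Figure D1:**
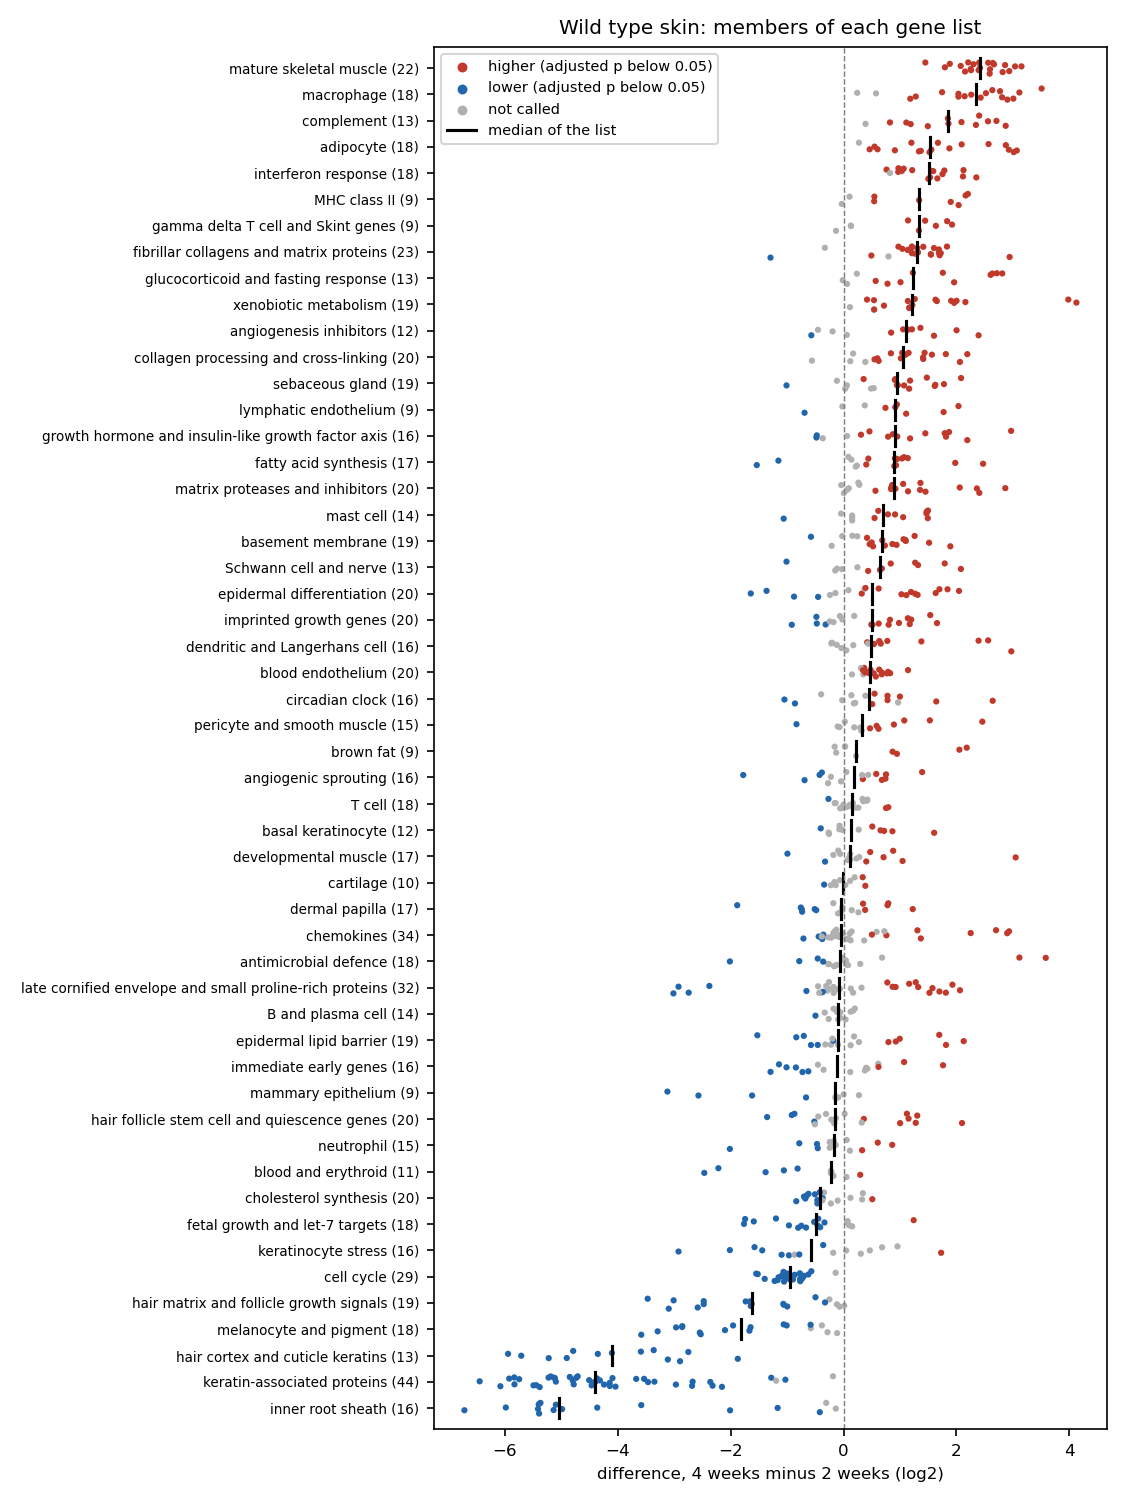
Difference in log2 signal between wild type skin at 4 and at 2 weeks (horizontal axis) for the measured members of 52 gene lists (vertical axis, members measured in brackets), 1 point per gene, coloured by the limma call, with the median of each list as a bar. The lists run from inner root sheath genes, with a median of -5.04, to mature skeletal muscle genes, with a median of 2.41.

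The genes of the growing hair fell further than any other list examined. All 13 measured hair cortex and cuticle keratins were lower at 4 weeks, with a median difference of -4.10. Among the inner root sheath genes 14 of 16 were lower and none higher (median -5.04), and among the keratin-associated proteins, which cross-link the keratin filaments of the shaft, 42 of 44 were lower and none higher (median -4.41). Over all genes 24.5% were lower and the median difference was -0.06. The measured RNA cannot separate fewer cells of a type from less RNA in each cell, here or in the lists that follow.

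Krt26, a keratin of the inner root sheath, fell most of all genes named by the rule. Its signal was 11.22, 11.40 and 11.33 at 2 weeks and 4.73, 4.44 and 4.63 at 4 weeks. The arrays of the older mice lay far below those of the younger ones, and the difference was -6.72 ± 1.22 (SE, 3 arrays a group, limma adjusted p = 0.000109). Krtap15, a shaft protein, read 12.11, 12.12 and 11.97 at 2 weeks and 6.19, 5.22 and 5.45 at 4 weeks, a difference of -6.45 ± 1.17 (SE). The receptor gene Gprc5d, also known from the hair shaft, read 11.06, 10.99 and 10.86 at 2 weeks and 5.30, 4.50 and 4.70 at 4 weeks. Absence of overlap between the ages was a condition for naming the largest falls. In all 3 genes the arrays of one age lay close together beside the distance between the ages.

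The standard errors of the hair genes are wide because the spread is taken over all 10 groups. At 6 and 8 weeks the hair genes differed strongly between mice of one age. The mean signal of the 13 hair cortex and cuticle keratins was 5.88 to 5.98 in the 3 arrays of 4 weeks and 9.89 to 10.08 in those of 2 weeks. It was 7.06 to 9.81 in the 4 arrays of 6 weeks. At 8 weeks it read 5.73 and 6.05 in a pair of arrays and 9.89 in the third. In the fit to the 6 compared arrays alone, the adjusted p of Krt26 was 5.45e-09.

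The upstream sequences of Krt26 and Krtap15 are shown because these genes had the largest falls among the inner root sheath and shaft genes. Each is the stretch of 170 bases that ends just before the gene's start in RefSeq, build GRCm38.p6, written 5′ to 3′ in the direction of the gene, with TATAAA in capitals.
Krt26, chr11:99337966-99338135, minus strand: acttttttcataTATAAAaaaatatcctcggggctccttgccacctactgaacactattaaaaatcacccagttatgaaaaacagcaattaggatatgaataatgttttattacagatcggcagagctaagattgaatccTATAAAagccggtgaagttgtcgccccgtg
Krtap15, chr16:88828839-88829008, plus strand: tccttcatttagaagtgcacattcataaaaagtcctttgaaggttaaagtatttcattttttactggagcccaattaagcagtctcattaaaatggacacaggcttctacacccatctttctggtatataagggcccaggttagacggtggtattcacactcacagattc
The letters TATAAA were searched on both strands of the whole RefSeq promoter window, which runs from 250 bases before the start to 50 after it. They occurred in 30 of 38 windows (78.9%) of the keratin-associated protein genes called lower that matched a window (38 of 42), in 6 of 9 (66.7%) of the cortex and cuticle keratins (9 of 13 matched) and in 8 of 12 (66.7%) of the inner root sheath genes (12 of 14 matched). Of all 32851 windows, 13.6% held them. Similarity among the windows of the same gene family was not tested. Krt26 has 2 matches, which begin 158 and 30 bases before the start, and Krtap15 has none in this window.

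**Figure D2:**
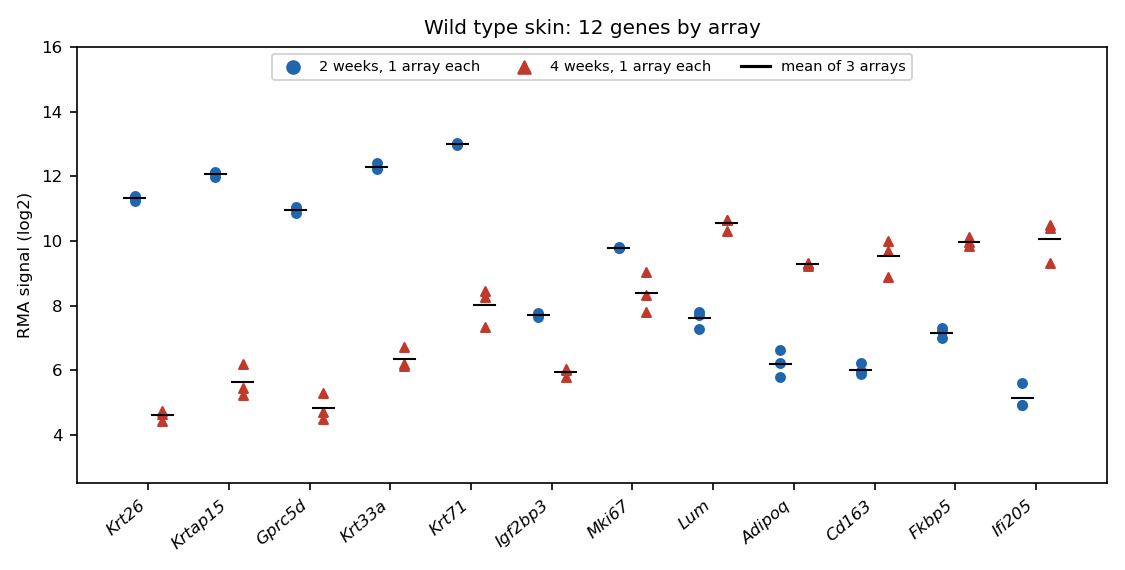
Signal of 12 genes (horizontal axis) in each wild type array on the log2 scale (vertical axis), with 2 week arrays as circles, 4 week arrays as triangles and the mean of 3 arrays as a bar. Krt26, Krtap15, Gprc5d, Krt33a, Krt71, Igf2bp3 and Mki67 are lower in all 3 arrays of 4 weeks, and Lum, Adipoq, Cd163, Fkbp5 and Ifi205 are higher.

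Regulators of the hair matrix fell with the structural genes. Of 19 measured genes of this list 15 were lower and none higher (median -1.63). Foxn1, the transcription factor missing in nude mice, read 8.44, 8.88 and 8.70 at 2 weeks and 6.25, 6.01 and 6.01 at 4 weeks, a difference of -2.58 ± 0.38 (SE, adjusted p = 1.23e-05). Msx2, Dlx3 and Hoxc13, homeobox factors of the hair matrix, fell by 3.47, 3.10 and 3.01. Lef1, the nuclear partner of beta-catenin in Wnt signalling, fell by 2.48, and the ligands Wnt10b and Shh fell by 1.0 and 1.06. Targets of hedgehog signalling moved little: Ptch1 and Gli1 differed by -0.25 and -0.12 and were not called.

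Pigment genes fell as well. Of 18 melanocyte genes 14 were lower and none higher (median -1.81). Tyr, which encodes tyrosinase, the enzyme that starts melanin synthesis, read 7.97, 7.99 and 8.15 at 2 weeks and 3.94, 5.27 and 5.02 at 4 weeks. Its 4 week arrays all lay below the 2 week arrays, with a difference of -3.29 ± 0.64 (SE, adjusted p = 0.000212). Oca2, Mlana and Pmel, genes of the melanosome, fell by 2.86, 2.97 and 2.55. Dct fell by 2.10, but without array 1 of 4 weeks its difference was -1.66 with an adjusted p of 0.0523. Sox10, Ednrb and Rab38, other members of the list, differed by -0.11, -0.58 and -0.38 and were not called.

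Genes of the resting follicle and of the dermal papilla, the signalling centre at its base, went both ways. In the stem cell and quiescence list 7 of 20 rose and 4 fell (median -0.15, 55.0% called beside 45.8% of all genes). Cd34, a surface protein of the bulge that vessels and fibroblasts also carry, read 9.16, 9.26 and 8.99 at 2 weeks and 11.12, 11.28 and 11.31 at 4 weeks, a rise of 2.10 ± 0.22 (SE). Krt15, a bulge and basal keratin, rose by 1.28, and Fgf18, a growth factor of the resting phase, by 1.0. Sox9 and Bmp6 fell by 1.35 and 0.87. Of 17 dermal papilla genes 5 rose and 6 fell. Without array 2 of 2 weeks 2 rose and 3 fell, and without array 1, 2 or 3 of 4 weeks 2 or 3 rose and 3 to 5 fell. Corin, a protease of the papilla, read 7.65, 7.72 and 7.31 at 2 weeks and 5.55, 5.72 and 5.76 at 4 weeks, a fall of 1.88, while Fgf7 rose by 1.23.

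Cell division genes fell almost without exception. Of 29 measured genes 28 were lower, none was higher and E2f1 alone was not called (median -0.95). Mki67, the proliferation antigen, read 9.77, 9.79 and 9.80 at 2 weeks and 7.80, 9.05 and 8.32 at 4 weeks. The 2 week arrays were almost equal, whereas the 4 week arrays were spread widely below them, with array 1 the lowest. The difference was -1.40 ± 0.33 (SE, adjusted p = 0.00139). Mcm2 and Mcm5, parts of the replicative helicase, fell by 1.15 and 1.17, and the mitotic kinase gene Aurka by 0.90. The mean signal of the cell cycle list was 8.01 to 8.05 at 2 weeks and 6.58, 7.60 and 7.07 in arrays 1 to 3 of 4 weeks. Without array 1 of 4 weeks 25 of the 29 were still called lower.

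Genes of the fetal growth programme were mostly lower. Of 18 genes in a list of fetal growth genes and known let-7 targets 13 fell and 1 rose (median -0.49). Igf2bp3, an RNA-binding protein of fetal tissue and tumours, read 7.65, 7.72 and 7.76 at 2 weeks and 6.00, 5.80 and 6.04 at 4 weeks. This was the fall with the lowest p of all named genes, -1.76 ± 0.11 (SE, adjusted p = 1.85e-10). Plag1 and Arid3a, transcription factors with let-7 sites, fell by 1.2 and 1.59, and Hmga2, a chromatin protein of growing tissue, by 0.45. Lin28a and Lin28b, the repressors of let-7 processing, differed by 0.15 and 0.10 and were not called. Gpc3, the single member that rose, is a proteoglycan that restrains growth (difference 1.24).

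Some loci of let-7 microRNAs were called higher and most were not called. These loci were looked at after the values had been seen, and the probe sets read RNA of the locus, which may be the long primary transcript, so they do not measure the mature microRNA. Of 297 measured microRNA genes 61 were higher and 15 lower, 25.6% in all against 45.8% of all genes. Of 10 let-7 family genes 4 were higher, none lower and 6 not called (median 0.21), a share called below the 45.8% of all genes. Without array 3 of 2 weeks or without array 1 of 4 weeks 2 were called. The mature forms of those 4 share their seed, bases 2 to 8, shown in capitals in the RefSeq sequences below (GRCm38.p6), because seed pairing selects the targets.
let-7c-5p, chr16:77599672-77599693, plus strand: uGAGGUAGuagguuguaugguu
let-7f-5p, chr13:48537889-48537910, minus strand: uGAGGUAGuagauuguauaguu
let-7a-5p, chr13:48538239-48538260, minus strand: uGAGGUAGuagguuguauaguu
miR-98-5p, chrX:151913229-151913250, plus strand: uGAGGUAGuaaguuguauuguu
Mirlet7c-1 read 3.37, 3.51 and 2.96 at 2 weeks and 5.08, 5.63 and 5.32 at 4 weeks, a rise of 2.06 ± 0.23 (SE, adjusted p = 5.85e-07), and the ages did not overlap. Its signal at 2 weeks was low, below those of the milk genes Csn2 and Wap. Mir99a, its neighbour on the same transcript, and the host transcript Mir99ahg rose by 1.14 and 0.79. Mirlet7f-1 rose by 1.26 ± 0.19 (SE). The calls of Mirlet7a-1 (difference 0.45) and Mir98 (0.28) were not stable. Mirlet7a-1 was lost without array 3 of 2 weeks (0.30, adjusted p = 0.109) or array 1 of 4 weeks (0.40, adjusted p = 0.0511). Mir98 was lost without array 1, 2 or 3 of 2 weeks and without array 1 or 3 of 4 weeks, with differences of 0.23 to 0.30.

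Another group of microRNA genes had its highest signal at 4 weeks. Between Meg3 and Mirg on chromosome 12 lies an imprinted cluster in which long noncoding RNAs and many microRNAs are made from the maternal chromosome. Of its 40 measured microRNA genes 24 were higher at 4 weeks and none lower (60.0%), against 33 higher and 15 lower of 247 microRNA genes outside both groups. The host RNA Meg3 read 8.97, 8.84 and 8.89 at 2 weeks and 9.72, 10.08 and 10.32 at 4 weeks, a rise of 1.14 ± 0.25 (SE, adjusted p = 0.000566), and Rian rose by 0.99 ± 0.25 (SE). Mir382 and Mir411 read 4.43, 4.21 and 4.21 at 2 weeks and 5.65, 6.00 and 5.76 at 4 weeks, and 2.91, 3.06 and 3.09 at 2 weeks and 3.83, 3.88 and 4.07 at 4 weeks, in that order. Both were higher in every array of 4 weeks than in any of 2 weeks. Their signals were low: at 2 weeks Mir382 lay between the milk genes Csn2 and Wap, and Mir411 below both. The median difference of the 40 genes was 0.37 (lowest -0.23, highest 1.52), so Mir382 (1.52) and Mir411 (0.91) lay above it. The median signal of the 40 genes, taken at each age, was 4.24 at 2 weeks, 5.05 at 4, 4.28 at 6, 4.39 at 8 and 4.06 at 10 weeks. Some mature forms of the 2 loci, and of Mir379 beside Mir411, are shown with the seed in capitals. The forms miR-382-3p and miR-379-5p are left out. The 3′ arms of miR-379 and miR-411 share a seed.
miR-382-5p, chr12:109733781-109733802, plus strand: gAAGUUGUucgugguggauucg
miR-411-5p, chr12:109710190-109710210, plus strand: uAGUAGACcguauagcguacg
miR-411-3p, chr12:109710225-109710246, plus strand: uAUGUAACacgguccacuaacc
miR-379-3p, chr12:109709102-109709123, plus strand: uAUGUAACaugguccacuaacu

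**Figure D3:**
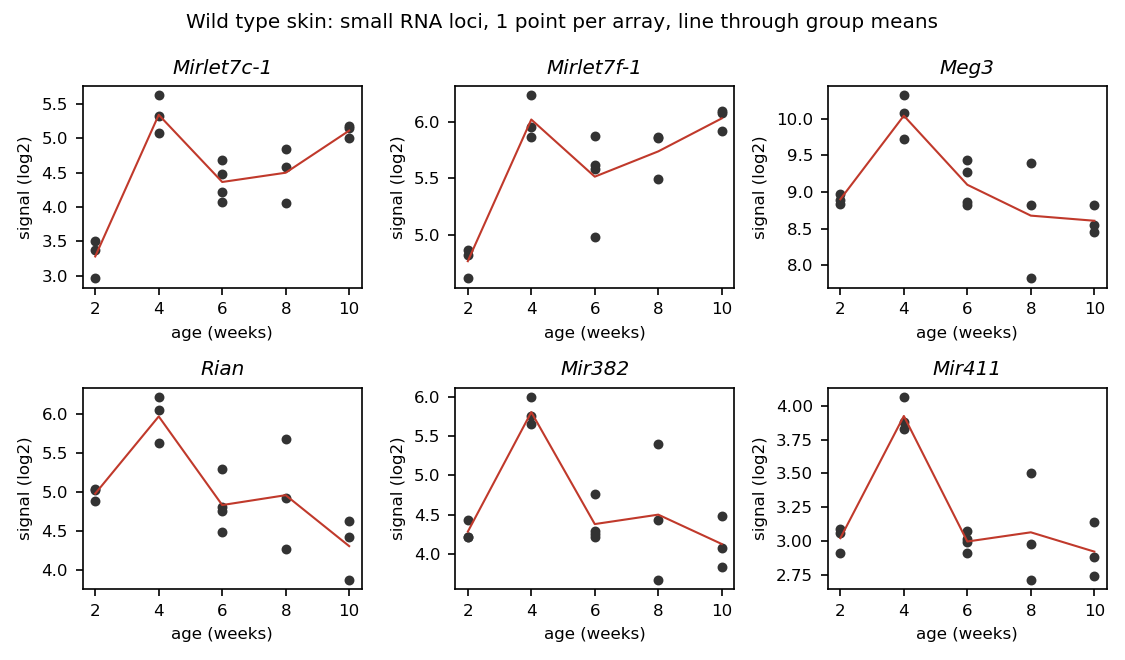
Signal on the log2 scale (vertical axes) of 6 small RNA and host loci against age in weeks (horizontal axes) in wild type skin, 1 point per array and a line through the group means. Meg3, Rian, Mir382 and Mir411 have their highest group mean at 4 weeks, and Mirlet7c-1 rises from 3.28 at 2 weeks to 5.34 at 4 weeks.

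Imprinted growth genes rose more often than they fell. Of 20 measured genes, in a list that holds Meg3, 11 were higher and 4 lower (median 0.50), beside 21.3% higher and 24.5% lower of all genes. The list mean was 7.12 at 2 weeks, 7.54 at 4, 7.12 at 6, 7.02 at 8 and 7.08 at 10 weeks, so the higher level was not kept. In cpdm skin the median difference of the list between 4 and 2 weeks was 0.02. Ndn, which encodes necdin, read 6.89, 6.94 and 6.67 at 2 weeks and 8.15, 8.71 and 8.61 at 4 weeks, a rise of 1.66 ± 0.20 (SE, adjusted p = 1.61e-06). Grb10, a brake on insulin receptor signalling, and Peg3 rose by 1.54 and 0.80. Cdkn1c, an inhibitor of cell division, rose by 0.98. Igf2, the fetal growth factor, read 8.01, 7.86 and 7.83 at 2 weeks and 6.92, 7.74 and 7.60 at 4 weeks. It was called lower (-0.48 ± 0.19, SE), but the call was lost on leaving out any of the 2 week arrays or array 1 of 4 weeks, and without the latter the difference was -0.23. Its mean went on to 6.40 at 6 weeks and 6.27 at 10 weeks.

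Dermal matrix genes rose together. Of 23 fibrillar collagens and matrix proteins 20 were higher and 1 lower (median 1.31). Lum, the proteoglycan lumican, read 7.72, 7.81 and 7.27 at 2 weeks and 10.32, 10.66 and 10.65 at 4 weeks. The ages were far apart, with a rise of 2.94 ± 0.35 (SE, adjusted p = 1.43e-06). Col1a1 and Col3a1, the main fibrillar collagens of the dermis, rose by 0.97 and 1.32 from high signals. Eln, the gene of elastin, read 9.73, 9.60 and 9.37 at 2 weeks and 10.46, 10.61 and 10.76 at 4 weeks, and its mean returned to 9.27 at 6 weeks. Tnc, a matrix protein of developing and healing tissue, was the member that fell (-1.29 ± 0.33, SE).

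The enzymes that finish collagen rose as well. Of 20 genes for hydroxylation, cleavage and cross-linking 16 were higher and none lower (median 1.06). Pcolce, which enhances the trimming of procollagen, read 8.65, 8.55 and 8.36 at 2 weeks and 10.23, 10.87 and 11.04 at 4 weeks, a rise of 2.19 ± 0.24 (SE). Lox, the cross-linking oxidase, rose by 2.06 and the prolyl hydroxylase subunit P4ha2 by 1.81. Of 19 basement membrane genes 14 rose and 1 fell. Nid1, the linker protein nidogen, rose by 1.89, and Lama5 was the one that fell (difference -0.58). Of 20 matrix proteases and their inhibitors 14 rose and none fell. Mmp3 and Mmp2, which degrade matrix, rose by 2.87 and 2.06, and Ctsk, which encodes cathepsin K, by 2.36.

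Macrophage genes rose strongly. Of 18 genes 16 were higher and none lower (median 2.35). Cd163, the haemoglobin scavenger receptor of tissue macrophages, read 5.87, 6.22 and 5.97 at 2 weeks and 8.88, 9.70 and 10.01 at 4 weeks, a rise of 3.51 ± 0.34 (SE, adjusted p = 1.18e-07). Csf1r, the receptor of the growth factor that macrophages need, read 7.28, 7.01 and 6.98 at 2 weeks and 8.86, 9.45 and 9.75 at 4 weeks. In both genes array 1 of 4 weeks was the lowest of its age and still above every array of 2 weeks. The mean signal of the list was 6.08 to 6.25 at 2 weeks and 7.61, 8.56 and 8.94 in arrays 1 to 3 of 4 weeks. Without array 1 of 4 weeks 17 of 18 were called. Mrc1, the mannose receptor, rose by 3.01, and C1qa, C1qb and C1qc, the chains of complement C1q that macrophages make, by 2.90, 2.77 and 2.81. Lyz1 and Lyz2, lysozymes of myeloid cells that are close copies, rose by 3.58 and 3.12.

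Antigen presentation and complement followed the same direction. Of 9 MHC class II genes 7 rose and none fell (median 1.34). H2-Aa read 8.24, 8.38 and 8.36 at 2 weeks and 10.45, 10.59 and 10.55 at 4 weeks, a rise of 2.20 ± 0.24 (SE), with no overlap, and Cd74, the invariant chain, rose by 2.16. Of 13 complement genes 12 rose and none fell (median 1.86), with C4b at 2.87 ± 0.35 and Serping1, the C1 inhibitor, at 2.40 ± 0.23 (SE). Of 16 dendritic and Langerhans cell genes 9 rose and none fell. Clec10a and Cd209d, lectins of dermal myeloid cells, rose by 2.97 and 2.56, and Cd207, langerin, by 0.78. Of 34 chemokines 8 rose and 4 fell (median -0.04), and the 35.29% called lay below the 45.8% of all genes. Ccl6, Ccl9 and Ccl8, which attract myeloid cells, rose by 2.93, 2.90 and 2.70.

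The T cell, B cell and neutrophil lists changed less than the macrophage list, at low signals. Their mean signals at 2 weeks were 5.17, 4.86 and 4.77, in the range of the milk genes Csn2 and Wap given above. Whether the low signal limited the calls was not tested. Of 18 T cell genes 2 rose and 1 fell, and of 14 B and plasma cell genes none rose and 1 fell (2 fell without array 3 of 4 weeks), shares below the 45.8% called over all genes. Cd2 rose by 0.79, whereas the call of Cd3g was lost without array 1 of 2 weeks or array 1 of 4 weeks, and that of Cd8b1 without any array of 2 weeks or without array 1 or 2 of 4 weeks. Cd3e read 6.48 at 2 weeks and 6.64 at 4 weeks and Ms4a1 3.81 at 2 weeks and 3.55 at 4 weeks, and neither was called. Of 15 neutrophil genes 3 rose and 4 fell, a share near that over all genes. Without array 1 of 2 weeks none was called higher and 1 lower, and without array 1 or array 2 of 4 weeks 1 was higher and 3 lower. S100a8, which keratinocytes also make, read 7.25, 6.65 and 6.64 at 2 weeks and 4.98, 4.80 and 4.72 at 4 weeks, a fall of 2.01. Mast cell genes rose in 9 of 14 cases and fell in 1, the exception being Kit, which melanocytes share (difference -1.06). Cpa3 and Mcpt4, mast cell proteases, rose by 1.5 and 1.49. Of 9 genes of gamma delta T cells and Skint proteins, which keratinocytes make and which shape the epidermal T cells, 6 rose and none fell. Skint10 rose by 1.92. The Skint genes are close copies, so the array may not separate them fully. In the list of blood and erythroid genes 5 of 11 fell and 1 rose (54.55% called, beside 45.8% of all genes). Slc25a37, the mitochondrial iron importer, fell by 2.47 and Slc4a1, the red cell anion exchanger, by 2.22. The globin genes of the list were not analysed here. At 8 weeks the list mean was 5.31, 5.43 and 5.97 in arrays 1 to 3, highest in array 3, which also had high hair keratins. At 6 weeks both list means were highest in array 3, too (5.95 for this list). How far this list reads blood cells was not tested.

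Interferon-stimulated genes were higher in the older skin. Of 18 measured genes 16 rose and none fell (median 1.52). Ifit1, an antiviral RNA-binding protein, read 4.81, 4.30 and 5.10 at 2 weeks and 5.77, 7.36 and 7.43 at 4 weeks, a rise of 2.12 ± 0.47 (SE, adjusted p = 0.00071). Array 1 of 4 weeks was the lowest of its age here, too. The list mean was 5.61 to 6.00 at 2 weeks and 6.46, 7.60 and 7.85 in arrays 1 to 3 of 4 weeks, and without array 1 all 18 were called. Leaving out any other of the 6 arrays left 13 or 14 called higher. Ifi205, of the interferon-inducible p200 family, had the largest rise of all genes named by the rule. It read 4.93, 5.59 and 4.91 at 2 weeks and 9.33, 10.40 and 10.48 at 4 weeks, a rise of 4.93 ± 0.32 (SE, adjusted p = 4.48e-10). The p200 family consists of close copies, and Ifi207 rose by 3.49.
The sequence upstream of Ifit1 is shown because the interferon genes moved together. GAAANNGAA, part of the interferon-stimulated response element, was searched on both strands of the same RefSeq windows and its matches are in capitals, which on this strand read in the reverse direction and in part overlap.
Ifit1, chr19:34640719-34640888, plus strand: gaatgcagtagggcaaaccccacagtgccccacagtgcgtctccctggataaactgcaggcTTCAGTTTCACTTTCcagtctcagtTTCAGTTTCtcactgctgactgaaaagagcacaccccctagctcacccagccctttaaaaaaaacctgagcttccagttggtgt
The 3 matches begin 109, 103 and 84 bases before the start. Matches occurred in 7 of 13 windows (53.8%) of the interferon genes called higher, of which 12 of 16 matched, and in 8.56% of all 32851 windows.

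Muscle and fat genes rose in nearly every case. All 22 mature skeletal muscle genes were higher (median 2.41). Ckm, the muscle creatine kinase, read 9.90, 9.88 and 9.89 at 2 weeks and 12.50, 12.19 and 12.19 at 4 weeks, a rise of 2.40 ± 0.22 (SE, adjusted p = 7.62e-08). Mybpc2, a protein of the fast thick filament, rose by 3.15, and the fast myosins Myh4 and Myh1 by 2.39 and 1.80. Myh8, the perinatal myosin, read 8.33, 8.26 and 7.87 at 2 weeks and 7.16, 7.05 and 7.27 at 4 weeks, a fall of 0.99. In the developmental muscle list as a whole 6 of 17 rose and 2 fell (47.06% called, near the 45.8% of all genes). The embryonic myosin Myh3 differed by -0.09 ± 0.19 (SE) and was not called. Muscle and fat lie under the dermis, and how much of each was taken with the skin is not given in the labels.

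Of 18 adipocyte genes 17 were higher and none lower (median 1.54). Adipoq, the fat cell hormone adiponectin, read 6.61, 5.79 and 6.21 at 2 weeks and 9.21, 9.29 and 9.32 at 4 weeks, a rise of 3.07 ± 0.36 (SE, adjusted p = 1.11e-06). Car3, a carbonic anhydrase of fat and muscle, read 10.01, 9.47 and 9.52 at 2 weeks and 12.65, 12.69 and 12.71 at 4 weeks. Its rise of 3.02 ± 0.20 had an adjusted p of 4.48e-10, the lowest of the rises together with that of Ifi205. Lep, leptin, rose by 1.2 and Retn, resistin, by 2.88. In the brown fat list 4 of 9 rose (44.44% called, near the 45.8% of all genes). The rises included Cox7a1 and Cox8b, which muscle shares, while Ucp1 was not called. Fatty acid synthesis genes rose in 11 of 17 cases and fell in 2 (median 0.90). Thrsp, a lipogenic regulator, rose by 2.47, whereas the desaturase Scd2 read 10.85, 10.96 and 10.94 at 2 weeks and 9.35, 9.68 and 9.11 at 4 weeks, a fall of 1.54. Of 20 cholesterol synthesis genes 11 fell and 1 rose (median -0.42). Sqle, the squalene epoxidase, differed by -0.70 ± 0.14 (SE, adjusted p = 0.000202).

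Among epidermal genes the suprabasal keratins and loricrin rose, while involucrin and several small proline-rich proteins fell. Of 20 epidermal differentiation genes 12 were higher and 4 lower (median 0.51). Krt1, the suprabasal keratin, read 9.52, 9.51 and 9.69 at 2 weeks and 11.89, 11.55 and 11.42 at 4 weeks, a rise of 2.05 ± 0.29 (SE, adjusted p = 9.35e-06), and its partner Krt10 rose by 1.27. Lor, loricrin, rose by 1.84, while Ivl, involucrin, read 10.11, 10.01 and 9.93 at 2 weeks and 8.74, 8.23 and 8.15 at 4 weeks, a fall of 1.64, and the transglutaminase Tgm1 fell by 1.36. Among late cornified envelope and small proline-rich proteins 12 of 32 rose and 6 fell (56.25% called, beside 45.8% of all genes). All 12 that rose are Lce genes, such as Lce1c (2.06 ± 0.29, SE), and all 6 that fell are Sprr genes, such as Sprr1b (-2.92 ± 0.40). This split was noticed in the values, and members of each family are close copies. Krt5 differed by -0.07 ± 0.08 (SE) and was not called. Krt17, a keratin of the outer root sheath and of stressed epidermis, fell by 1.44, and 8 of 16 keratinocyte stress genes were lower and 1 higher. The lone rise was Krt6b (1.73 ± 0.46, SE), whose close copy Krt6a fell by 1.58. In the lipid barrier list 6 of 19 rose and 6 fell. Alox12b and Aloxe3, the epidermal lipoxygenases, rose by 1.82 and 1.70, and Pnpla1, which makes acylceramide, fell by 1.53.

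Sebaceous gland genes rose in 13 of 19 cases and fell in 1 (median 0.95). Awat1, a wax synthase, read 8.37, 8.35 and 8.32 at 2 weeks and 10.51, 9.96 and 9.91 at 4 weeks, a rise of 1.78 ± 0.33 (SE), and Dgat2l6 rose by 2.08. Prdm1 was the member that fell (difference -1.01). Genes of xenobiotic metabolism rose in 17 of 19 cases and none fell (median 1.22). Cyp2e1 and Cyp2f2, monooxygenases, were among the largest rises, with Cyp2e1 at 5.27, 5.53 and 5.36 at 2 weeks and 9.60, 9.41 and 9.53 at 4 weeks, and Cyp2f2 at 6.90, 6.19 and 6.33 at 2 weeks and 10.27, 10.62 and 10.48 at 4 weeks. They rose by 4.13 ± 0.56 and 3.98 ± 0.36 (SE). Gpx3, the secreted glutathione peroxidase, and Aldh1a1, which makes retinoic acid, rose by 3.85 and 3.81.

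Most blood vessel genes were higher, by small amounts. Of 20 blood endothelial genes 17 were higher and none lower (median 0.48), but leaving out array 2 of 2 weeks or array 1 of 4 weeks left 11. Emcn, a sialomucin of capillaries and veins, read 6.62, 6.33 and 6.43 at 2 weeks and 7.77, 7.46 and 7.58 at 4 weeks, a rise of 1.14 ± 0.20 (SE, adjusted p = 5.9e-05), and Pecam1 rose by 0.57. Cdh5, the endothelial cadherin, differed by 0.35 ± 0.15 and was not called. Of 16 genes of vessel sprouting 6 rose and 4 fell (median 0.19). The growth factor Vegfa read 7.47, 7.33 and 7.43 at 2 weeks and 7.91, 7.72 and 7.91 at 4 weeks. Its arrays did not overlap between the ages, but its difference of 0.44 ± 0.21 (SE) was not called (adjusted p = 0.0873). Of 12 inhibitors of angiogenesis 8 rose and 1 fell (median 1.10), among them Serpinf1 (2.00 ± 0.22, SE). Of 9 lymphatic genes 6 rose and 1 fell. Of 15 pericyte and smooth muscle genes 7 rose and 1 fell (53.33% called, beside 45.8% of all genes). Of 13 Schwann cell and nerve genes 8 rose and 1 fell. Scn7a, a sodium channel protein of Schwann cells, rose by 2.08, and Egr2, which follicles also express, fell by 1.01.

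Most members of the hormone-responsive lists rose. Of 13 glucocorticoid and fasting response genes 10 were higher and none lower (median 1.23). Fkbp5, a chaperone of the glucocorticoid receptor, read 7.0, 7.29 and 7.20 at 2 weeks and 9.84, 10.11 and 9.98 at 4 weeks, a rise of 2.81 ± 0.27 (SE, adjusted p = 1.23e-07). Tsc22d3, the glucocorticoid-induced leucine zipper, rose by 2.72 and Pdk4, induced in fasting, by 2.64. Of 16 genes of the growth hormone and insulin-like growth factor axis 12 rose and 2 fell (median 0.91), the latter including Igf2. Igf1 read 6.51, 6.60 and 6.33 at 2 weeks and 8.08, 8.76 and 9.18 at 4 weeks, a rise of 2.19 ± 0.32 (SE), the growth hormone receptor Ghr rose by 1.45, and the binding protein Igfbp6 by 2.97. Igf1r, the receptor, differed by 0.06 and was not called.

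Some clock genes differed between the ages. Of 16 genes 7 rose, 2 fell and 7 were not called (median 0.45), which is 56.25% called beside 45.8% of all genes. Nr1d1, the repressor REV-ERB alpha, read 7.46, 7.21 and 7.22 at 2 weeks and 9.99, 9.83 and 10.00 at 4 weeks, a rise of 2.64 ± 0.34 (SE, adjusted p = 3.32e-06). Clock and Arntl, the activator pair, rose by 1.0 and 0.55, whereas the repressor Cry1 fell by 1.05. Per2 and Per3 differed by -0.02 ± 0.26 and 0.18 ± 0.28 (SE) and were not called. The time of day at which skin was taken is not given, so age and time of day cannot be told apart. Immediate early genes rose in 3 of 16 cases and fell in 6 (56.25% called), with Egr1, a zinc finger factor, at -1.29. Dusp1, a phosphatase that glucocorticoids also induce, rose by 1.76 ± 0.39 (SE), with array 1 of 4 weeks the highest.

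Some of the strongest changes lay outside the lists. Serpina3n, a protease inhibitor of inflammation and of glucocorticoid response, read 6.39, 7.03 and 6.66 at 2 weeks and 10.00, 10.16 and 10.00 at 4 weeks, a rise of 3.36 ± 0.32 (SE). Il31ra, a receptor chain for the itch cytokine interleukin 31, read 5.61, 5.79 and 5.54 at 2 weeks and 8.68, 8.55 and 8.98 at 4 weeks. Krt24, a keratin of differentiating epithelium, rose by 3.16, and Ms4a4a, Ms4a6b and Ms4a6c, membrane proteins known from macrophages, by 3.62, 3.44 and 3.35. Absence of overlap between the ages was a condition for naming these genes, and it held for 53.2% of all genes. Among the falls, Crnn, which encodes cornulin, read 11.54, 11.37 and 11.35 at 2 weeks and 5.11, 5.55 and 5.37 at 4 weeks. Prr9 and Calhm4 fell by 5.86 and 5.53. Smaller falls with very low p were those of Wapl, which releases cohesin from chromosomes (-0.76 ± 0.08, SE, adjusted p = 6.36e-07), and Syt7, a calcium sensor of vesicle fusion (-1.72 ± 0.20, SE, adjusted p = 7.19e-07).

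Few members of the antimicrobial and cartilage lists were called (33.33% and 30.0%, beside 45.8% of all genes). Of 18 antimicrobial genes 2 rose, the lysozymes given above, and 4 fell. Of 10 cartilage genes 2 rose and 1 fell. Each of those calls, of Hapln1, Col2a1 and Matn1, was lost on leaving out at least 1 of the 6 arrays. In the mammary epithelium list none of 9 rose and 4 fell (44.44% called, near the 45.8% of all genes). Elf5, a factor of luminal cells that hair follicles also express, read 8.93, 8.78 and 8.55 at 2 weeks and 5.62, 5.44 and 5.84 at 4 weeks, a fall of 3.12, and Krt18 and Krt8 fell by 2.57 and 1.62. The milk gene Csn3 fell by 0.66 from a low signal, while Csn2 and Wap were not called. Of 12 basal keratinocyte genes 5 rose and 1 fell, and the single fall, Krt14 (-0.40 ± 0.14, SE), was lost without array 1 or 3 of 2 weeks or array 2 or 3 of 4 weeks.

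At later ages some of these lists kept the level of 4 weeks and others did not. The mature muscle list had a mean signal of 9.0 at 2 weeks, 11.43 at 4, 10.99 at 6, 10.96 at 8 and 11.41 at 10 weeks. MHC class II genes stood at 6.80, 8.00 and 8.74, with all 3 arrays of 10 weeks above those of 4 weeks. Fibrillar collagens and matrix proteins stood highest at 4 weeks (10.39) and at 9.66 at 10 weeks. At 8 weeks array 3, the one with high hair keratins, also had the highest cell cycle mean of its age (7.54 against 6.63 and 6.88) and the lowest muscle mean (10.21 against 11.28 and 11.40). At 6 weeks array 3, with the highest hair keratin mean (9.81), had the lowest muscle mean (10.39) and also the lowest cell cycle mean (6.71), while array 2, with the lowest hair keratin mean (7.06), had the highest of both (11.52 and 7.39). The order of the cell cycle means thus ran opposite ways at 6 and 8 weeks. The part of the hair cycle in the differences between 2 and 4 weeks was not tested.

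**Figure D4:**
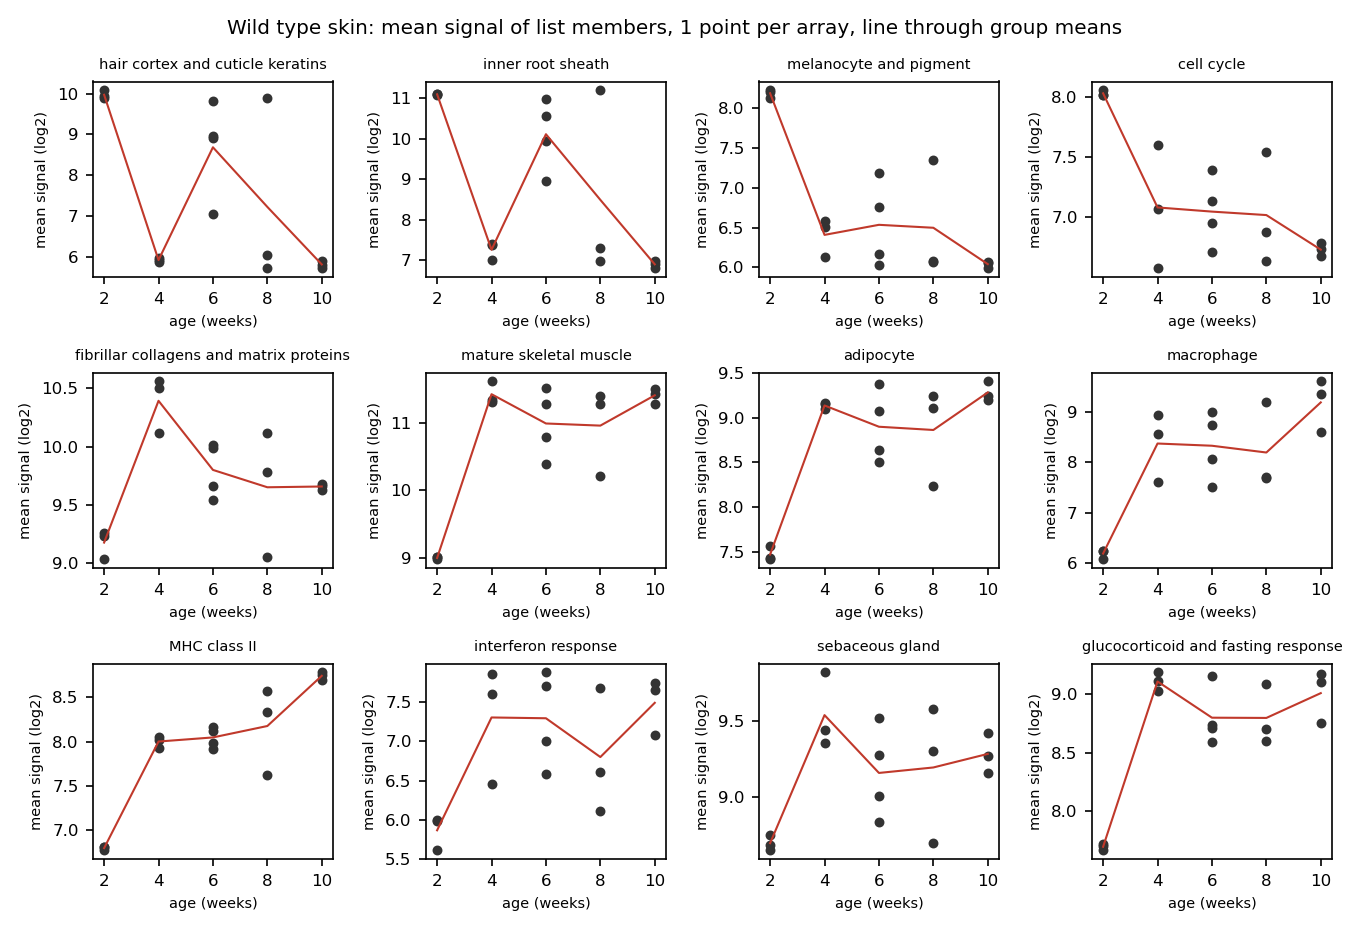
Mean log2 signal of the measured members of 12 gene lists (vertical axes) against age in weeks (horizontal axes) in the 16 wild type arrays, 1 point per array and a line through the group means. Hair cortex and cuticle keratins fall from 9.97 at 2 weeks to 5.92 at 4 weeks, spread widely at 6 and 8 weeks, and stand at 5.82 at 10 weeks.

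The change from 2 to 4 weeks was compared with that in cpdm skin by testing the difference between the changes. Of 19938 genes 46 (0.231%) were called, 37 with a lower and 9 with a higher change in the wild type. At an unadjusted p below 0.05 there were 2633. Gsdmc, a gasdermin of epithelial cells, differed by 0.57 in wild type skin and was not called there, but rose from 5.97 ± 0.27 to 9.70 ± 0.29 (SD, n = 3) in cpdm skin. The difference between the changes was -3.17 ± 0.39 (SE, limma adjusted p = 0.000424). Ccl17, a chemokine for T cells, and Mmp12, the macrophage elastase, differed by -0.22 and -0.04 in the wild type, where neither was called, and rose by 2.26 and 2.75 in cpdm skin. Gsdmc2, Igfl3, Serpina10 and Rbp2 were not called in the wild type and rose more in cpdm skin, with differences between the changes of -2.77, -2.03, -1.15 and -1.48.

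Among genes called in the wild type 25 differed in their change from cpdm skin. Egln3, a hydroxylase of the oxygen-sensing pathway, read 8.40, 8.19 and 8.28 at 2 weeks and 7.94, 7.32 and 7.21 at 4 weeks, a fall of 0.80 in the wild type against a rise of 1.25 in cpdm. Cd44, the hyaluronan receptor, fell by 0.51 in the wild type and rose by 0.43 in cpdm. Sprr2e fell by 0.66 and rose by 1.2, in that order, and its wild type call was lost without array 1 of 2 weeks (-0.54, adjusted p = 0.0596). Tekt5, a tektin, fell by 1.53 in the wild type and by 0.51 in cpdm. Zbtb16, a transcription factor induced by glucocorticoids, read 7.82, 8.19 and 8.41 at 2 weeks and 10.56, 10.84 and 10.84 at 4 weeks, a rise of 2.61 ± 0.26 (SE) in the wild type, against a difference of 0.59 in cpdm that was not called. The difference between the changes was 2.02 ± 0.37 (SE, adjusted p = 0.00801). Sharpin read 7.90 at 2 weeks and 8.12 at 4 weeks in the wild type, a difference of 0.21 ± 0.09 that lost its call on leaving out any of the 6 arrays.

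**Figure D5:**
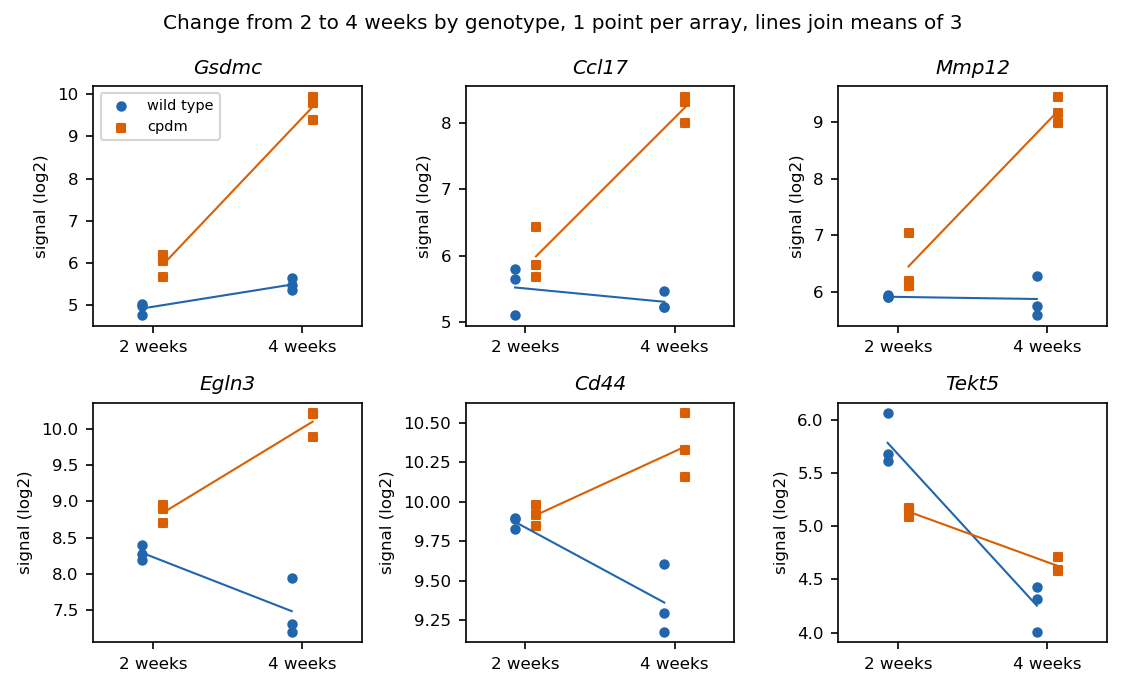
Log2 signal (vertical axes) of 6 genes in wild type (circles) and cpdm skin (squares) at 2 and 4 weeks (horizontal axes), 1 point per array, with lines joining the means of 3 arrays. Gsdmc, Ccl17 and Mmp12 were called higher at 4 weeks in cpdm skin and not called in the wild type, Egln3 and Cd44 fall in the wild type and rise in cpdm, and Tekt5 falls further in the wild type.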

How the data were processed

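Skin RNA of 31 mice was hybridised to expression arrays after oligo(dT)-primed amplification, per the labels' protocols. The authors deposited log2 values for 35556 probe sets. The submitters' processing notes name RMA and the program Affymetrix Expression Console 1.2. Joint normalisation of all arrays is not stated there. The number of arrays limits the precision.

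Probe sets were named through the platform annotation: 21789 had 1 gene, 1621 several and 12146 none. The probe set with the highest mean over all arrays stood for each of 19938 genes. A model of 10 group means was fitted with limma 3.58.1 in R 4.3.3 to all 31 arrays without batch terms, and p-values were adjusted by Benjamini-Hochberg over all genes. The standard errors therefore pool the spread of all groups. The script was tested on simulated data. The members and the 52 gene lists were chosen with earlier results of these data known. List counts and medians are descriptions, to be read beside the 45.8% of all genes called.

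Named genes were the 20 largest rises and 20 largest falls among called genes without overlap, the 5 lowest p in each direction, the 4 lowest p in each list, the 10 lowest p for the genotype difference, Sharpin and defining markers, with clones and gene models left out. The microRNA loci with their host transcripts, and list members given by their difference alone, were chosen after their values were seen. Krt85, Hba-a1, Hbb-b1 and some other marker genes were not analysed here. Same-numbered arrays of the 2 ages are different mice and did not deviate together, so they were not paired.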

Additional observations from a re-analysis of the deposited data

Results flagged for a closer look

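The change from 2 to 4 weeks differed between wild type and cpdm skin, by the limma test of the difference itself, in 12 of the named genes. The 10 genes with the lowest p in this same test were named for it, so this count follows largely from the naming rule. The sizes below are the wild type change minus the cpdm change on the log2 scale. For Gsdmc, Ccl17, Mmp12, Gsdmc2, Igfl3, Serpina10 and Rbp2, which were called in cpdm skin and not in the wild type, the sizes were -3.17, -2.47, -2.79, -2.77, -2.03, -1.15 and -1.48, in that order. For Egln3, Sprr2e and Cd44, which fell in the wild type and rose in cpdm skin, they were -2.05, -1.86 and -0.94. Tekt5, which fell in both, had -1.02, and Zbtb16, which rose in the wild type, had 2.02. All 12 kept this call on leaving out each of the 12 arrays compared in turn. The groups also differ in substrain, so mutation and substrain cannot be told apart.

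The comparison of genes did not use 13767 probe sets that name no gene or several. Of these, 647 were called higher and 1576 lower at 4 weeks in the same kind of fit.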

How the results depend on the processing

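No called difference of a named gene changed sign under any alternative run. The balance of calls over all genes did turn: 46.4% of the called genes were higher, 51.2% with a replicate block on the 6 compared arrays (3879 higher, 3704 lower) and 66.9% with at least 2-fold. Of the 9138 genes called, the number was 2001 (1338 higher, 663 lower) where a difference of at least 2-fold was also asked for. Leaving out each of the 6 arrays in turn gave 7825 to 8373 called, with 3732 to 3919 higher and 3992 to 4530 lower. The 46 genes whose change differed from cpdm skin became 611 with array weights, 26 at an adjusted p below 0.01 and 30 with at least 2-fold. Leaving out 1 wild type or cpdm array gave 31 to 51; the cpdm arrays were added to this after seeing the data. That comparison could not be computed from the 6 compared arrays or the 16 wild type arrays alone, which hold no cpdm skin. With a replicate block 9085 genes were called in all 31 arrays and 7583 in the 6 arrays, and 52 differed from cpdm. Same-numbered deviations correlated at -0.064, 0.042 and -0.050, so the numbers do not pair the mice. Centring, other normalisation, other probe set rules and filters on dim genes left the count of all called genes within 1.5 times, and centring shifted the split of higher and lower calls, as given in the report.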
